A study of Homo sapiens with 34 samples.

Results

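The stretch of distal 8q24 from ASAP1 to TG and on to an intergenic site at 133.72 Mb was taken as chr8:130000001-134000000 (hg38), and its members were the H3K9me peaks whose midpoint lay there. There were 2159 such peaks among 1034291 in 34 peak lists: 1608 in PC3 DM and 551 in COLO320 DM. H3K9me was profiled on 50000 nuclei per library by CUT&Tag, where a transposase tethered to the antibody tags the DNA around the mark. The labels do not state the degree of methylation that the antibody recognises. PC3 DM is a prostatic adenocarcinoma line and COLO320 DM a colorectal adenocarcinoma line, and the cells of every group received 700 ng of a plasmid for guide RNA and were collected 3 days later. The PC3 DM groups were vector (2 libraries), ecSE1 (3), ecSE2 (3), ecSE6 (3), ecSE7 (2) and the combination, labelled ecSEcombo (3). The COLO320 DM groups were vector, ecSE1, ecSE2, ecSE3, ecSE4 and ecSEcombo, with 3 libraries each. The series describes the perturbations as CRISPR-based and epigenomic. The labels give neither the position of any ecSE element nor the content of the combination. They do not say whether an element with the same number is the same DNA in both lines, nor whether replicates came from separate cultures. The p-values below thus rest on library-to-library spread, part or all of which may be technical.

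Methylation of histone H3 at lysine 9 marks heterochromatin and is laid down by SETDB1, the SUV39H enzymes and the G9a complex. A KRAB repressor domain brought to DNA by a guide RNA recruits SETDB1 through TRIM28, so a new domain of the mark is a common readout of where such a repressor acts. Extrachromosomal DNA is circular, carries oncogenes at many copies per cell and lacks centromeres, and its enhancers can act on genes of the same or of other circles. The 8q24 arm around MYC is a frequent source of such circles. The genes of the stretch include ASAP1, a GTPase-activating protein for Arf that acts on the actin cytoskeleton, ADCY8, a calcium-stimulated adenylyl cyclase, TG, the thyroglobulin precursor of thyroid hormone, and ST3GAL1, a sialyltransferase of the Golgi.

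PC3 DM lists held more peaks of the stretch than COLO320 DM lists, in number and as a share of the list. A PC3 DM library had 100.5 ± 43.8 peaks there (SD, n = 16), or 25.1 ± 11.0 per Mb, and a COLO320 DM library 30.6 ± 41.1 (SD, n = 18), or 7.65 ± 10.3 per Mb. Lists ranged from 10288 to 102286 peaks in PC3 DM and from 9385 to 125213 in COLO320 DM, so peaks were also taken as a share of their list. The share was 0.321% ± 0.0896 (SD, n = 16) in PC3 DM, from 0.221% to 0.515%. It was 0.106% ± 0.0327 (SD, n = 18) in COLO320 DM, from 0.0639% to 0.160%. No COLO320 DM library reached the lowest PC3 DM library. The difference of −0.214 percentage points had a two-sided permutation p of 1e-05, the smallest that 100000 resamples can give. With vector libraries alone the difference was −0.198 points, and 3 libraries against 2 allow no exact permutation p below 0.1, the value found. The covered length was 42.8 ± 12.0 kb per PC3 DM library (SD, n = 16) and 9.22 ± 8.66 kb per COLO320 DM library (SD, n = 18).

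Within a line, each perturbed group overlapped its vector group in share. In PC3 DM the vector libraries gave shares of 0.377% and 0.225%. The ecSE1 libraries gave 0.246%, 0.515% and 0.229%, and the ecSE2 libraries 0.327%, 0.254% and 0.314%. The single highest share, that of ecSE1 replicate 2, came from the shortest PC3 DM list, and the lowest, that of combination replicate 1, from the longest. The ecSE6 libraries gave 0.337%, 0.405% and 0.247%, the ecSE7 libraries 0.236% and 0.445%, and the combination libraries 0.221%, 0.371% and 0.382%. Perturbed libraries averaged 0.323% ± 0.0912 (SD, n = 14) against 0.301% ± 0.107 (SD, n = 2) for vector, with a two-sided exact permutation p of 0.758. In COLO320 DM perturbed libraries averaged 0.107% ± 0.0306 (SD, n = 15) against 0.103% ± 0.0506 (SD, n = 3), with an exact permutation p of 0.836. None of the 10 plasmids passed the test against its vector group (Benjamini-Hochberg adjusted p of 1 in each exact permutation test), in designs whose smallest p was 0.1 or, for ecSE7, 0.333. The perturbation effect was not shown to differ between the lines, with a permutation p of 0.801. The COLO320 DM ecSE1 mean of 0.142% ± 0.00906 (SD, n = 3) was the highest of that line, and its libraries, at 0.133% to 0.151%, did not overlap those of ecSE3, at 0.0777% to 0.0984%. That pair was noticed after the values were seen and was not tested, and 1 of the ecSE1 libraries was the list of 125213 peaks. The ecSE1 libraries overlapped those of every other COLO320 DM group. In the 4 Mb just distal to the stretch the ecSE1 mean was also the highest of that line, at 0.116% against 0.0686% to 0.0925%.

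**Figure D1:**
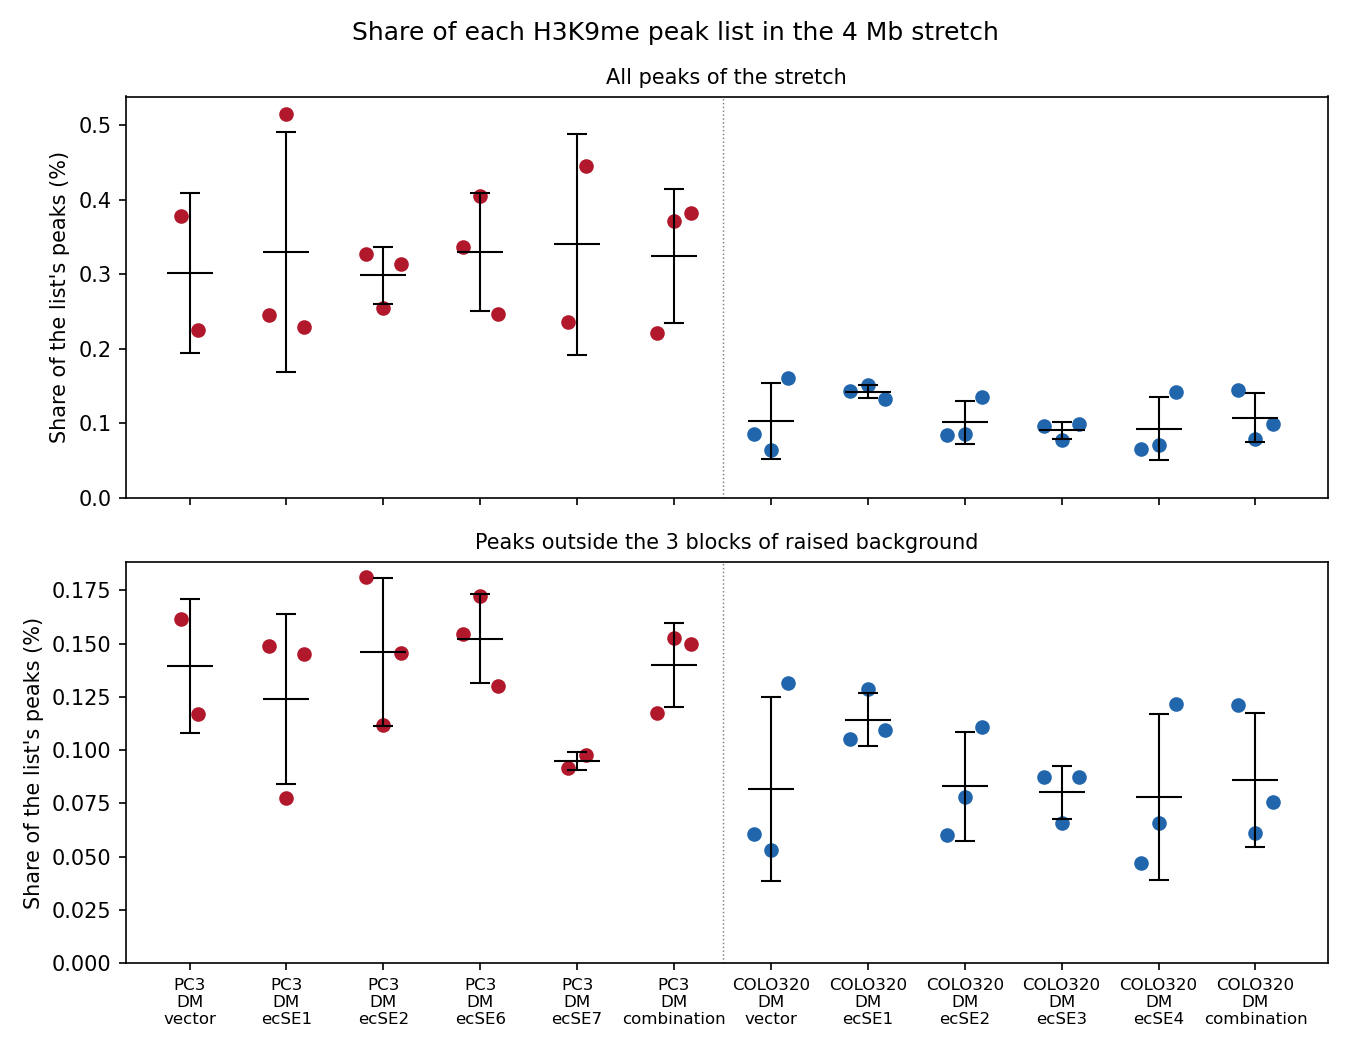
Share of each list's peaks (%, y axis) in the 4 Mb stretch by line and group (x axis), for all its peaks (top) and for those outside 3 blocks of raised background (bottom). Points are libraries, the long bar the group mean and the error bar the SD; all PC3 DM points of the top panel lie above 0.2%, while in the bottom panel the ranges of the lines, 0.0778% to 0.181% and 0.0468% to 0.131%, overlap.

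PC3 DM peaks with a high local background lay in 3 blocks. For each peak the number of fragments at the summit and the local background were recovered from the fold and p-value that the authors' peak caller gave. Both are given as multiples of the library's floor, the lowest local background found in that list. A background of at least 10 times the floor is called raised. In PC3 DM, 789 of 1608 peaks (49.1%) had a raised background, against a median of 6.13% of a PC3 DM list's peaks genome-wide (2.35% to 12.6%). All 789 lay in blocks that were drawn from them after their values were seen. The first block, chr8:130457225-130832449, runs from the intergenic DNA next to ASAP1 into ADCY8 and held raised peaks of 16 libraries. The second, chr8:132853977-132890953, covers the lower end of TG and held raised peaks of 11. The third, chr8:133662770-133900279, is the intergenic DNA on the far side of ST3GAL1 and held raised peaks of 16. The blocks took up 16.2% of the stretch and held 52.0% of its PC3 DM peaks but 16.7% of its COLO320 DM peaks. In COLO320 DM 1 of 551 peaks had a raised background, at 10.2 times the floor, and it lay outside the blocks. That is 0.181% of its peaks of the stretch, against a median of 10.6% of a COLO320 DM list's peaks genome-wide (2.5% to 15.4%).

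The blocks were drawn on raised PC3 DM peaks, so leaving them out lowers the PC3 DM share by construction, and the values inside and outside them are a description with no test. The share outside was 0.135% ± 0.0298 (SD, n = 16) in PC3 DM and 0.0873% ± 0.0281 (SD, n = 18) in COLO320 DM, a difference of −0.0475 points. Peaks numbered 14.4 per Mb in PC3 DM and 7.61 per Mb in COLO320 DM outside the blocks, and 84.3 and 9.48 per Mb in the block from ASAP1 to ADCY8. The relative background of the PC3 DM peaks was higher in the blocks, again by construction, since they were drawn on raised background. Its median was 46.0 times the floor in PC3 DM peaks of that block and 1.12 in COLO320 DM peaks there, and outside the blocks 1.24 and 1.31. Whether the local background took part in the number of peaks was not tested. In windows of 200 kb, PC3 DM had most peaks from 130.6 to 130.8 Mb, with 17.8 ± 4.06 per library, and from 133.6 to 133.8 Mb, with 16.6 ± 6.24 (SD, n = 16). COLO320 DM had 2.17 ± 2.33 and 1.17 ± 1.62 in the same windows (SD, n = 18). Over the body of ASAP1 itself, before the first block, PC3 DM had 2.94 ± 2.62 peaks per library, or 0.750 per 100 kb.

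**Figure D2:**
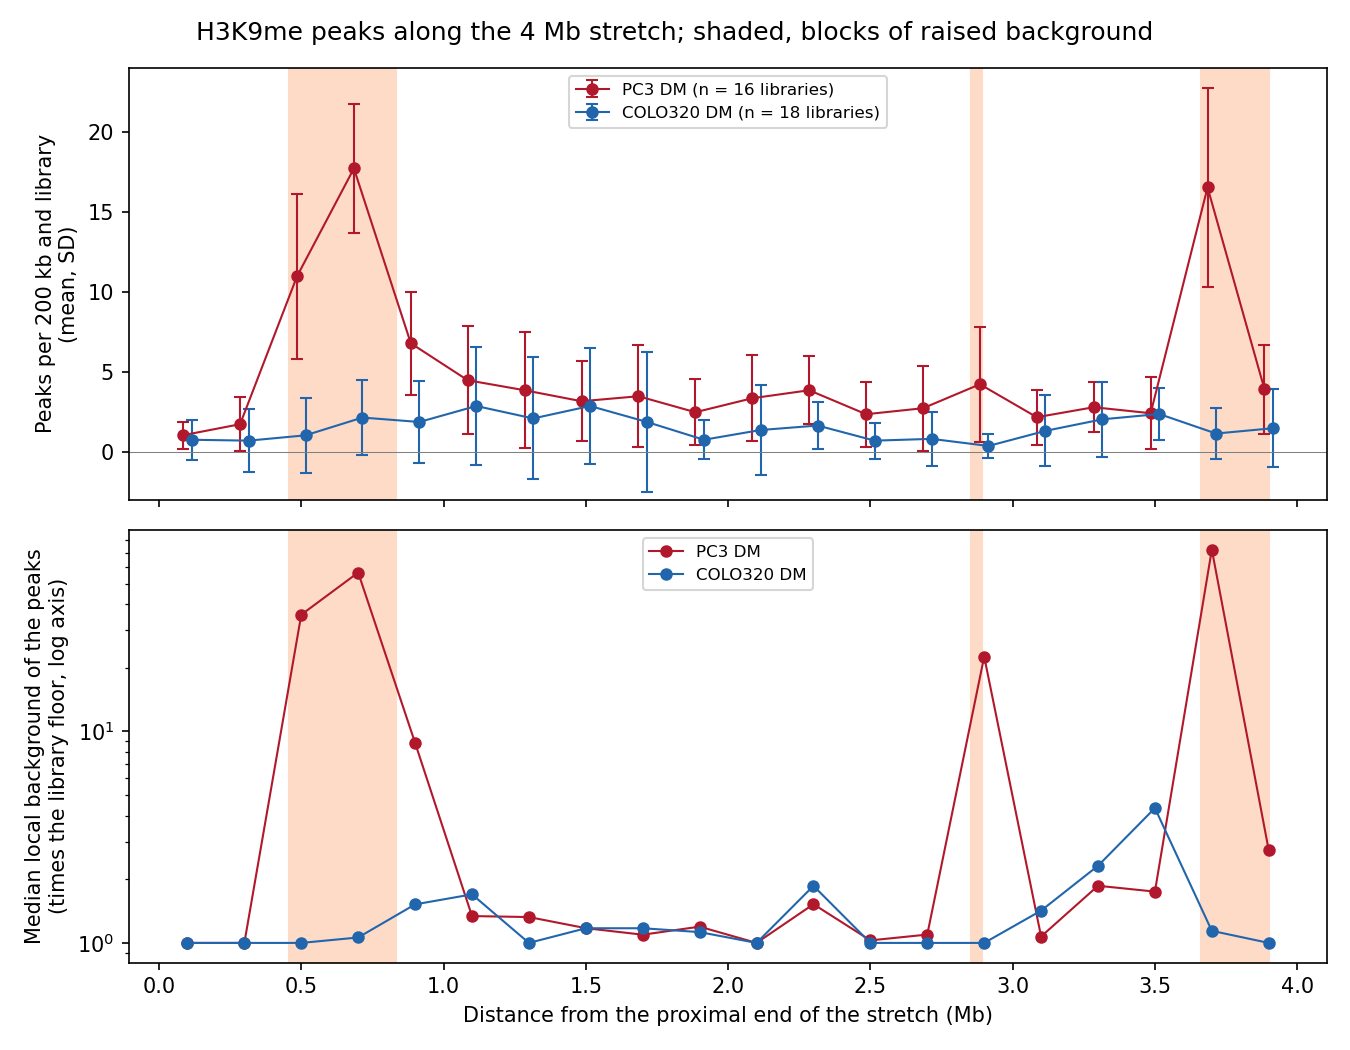
Peaks per 200 kb and library (top; mean and SD over 16 PC3 DM or 18 COLO320 DM libraries) and the median local background of those peaks as multiples of the library floor (bottom, log axis), against distance from the proximal end of the stretch (Mb). The shaded blocks carry the PC3 DM maxima of 17.8 and 16.6 peaks, where the median PC3 DM background is 56.4 and 72.3 times the floor, and COLO320 DM stays at or below 4.34.

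In the block from ASAP1 to ADCY8, tall peaks were present in every PC3 DM library, vector included. A summit of at least 500 times the floor is called tall, and each PC3 DM library had 3 to 8 tall peaks in this block. The first of the tallest positions lay near chr8:130657101, between ASAP1 and ADCY8 and in no protein-coding gene. Its summit was 855 times the floor in the lowest library, 1238 in the median library and 1757 in the highest, with summits between 130656783 and 130657130 in all 16 libraries. The other lay near chr8:130829152, inside ADCY8, at 849, 1426 and 1737 times the floor. Summits there fell between 130828937 and 130829280, and both positions were tall in libraries of every group. At the ADCY8 position the vector libraries, at 1737 and 1637 times the floor, stood above the 14 perturbed libraries, which ran from 849 to 1539. That difference was noticed among many positions and was not tested. At the position between the genes the groups overlapped, with 1757 and 1197 times the floor in vector and 855 to 1541 in perturbed libraries. The lncRNA gene LOC105375758, inside the block, had peaks in 16 of 16 PC3 DM libraries and 2 of 18 COLO320 DM libraries. The block was drawn on raised PC3 DM peaks, so that contrast is favoured by construction.

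At the TG site the tall domain was found with ecSE2 and with the combination. The site, chr8:132880000, lies inside TG, 13.0 kb from the end of the gene with the lower coordinate. The site had been chosen for the difference between these groups, so its values in PC3 DM are given without a test. Within 10 kb of it, the tallest peak of the ecSE2 libraries reached 2518, 3369 and 3967 times the floor, or 734, 1039 and 1163 fragments. In the combination libraries it reached 2781, 2436 and 2031 times the floor, or 692, 754 and 578 fragments. By −log10 q, the best peak within 10 kb ranked 3 to 6 in the whole list in these 6 libraries. Of the other 10 libraries, 6 had no peak within 10 kb. The 4 with a peak were vector replicate 1 at 121 times the floor, ecSE1 replicate 1 at 140, ecSE6 replicate 1 at 103 and ecSE7 replicate 2 at 217. The groups did not overlap: the lowest library of ecSE2 and the combination stood 9.34 times above the highest of the rest. The combination replicates fell within or below the range of the ecSE2 replicates.

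The domain at TG was short and its limits recurred. Its tall peaks spanned 7.66 to 7.76 kb in ecSE2 libraries and 7.56 to 7.68 kb in combination libraries. In the ecSE2 libraries it began between 132876633 and 132876737 and ended at 132884393 in all 3. In the combination libraries it began between 132876626 and 132876745 and ended between 132884298 and 132884305. Tall summits fell at common places within it: 5 of the 6 libraries had one at −2.56 to −2.53 kb of the site, 5 had one at 0.081 to 0.225 kb, and 5 had one at 2.55 kb. Peaks covered 4589 ± 411 bp within 10 kb of the site with ecSE2 and 3824 ± 206 bp with the combination (SD, n = 3 each), and 205 ± 302 bp in the other groups (SD, n = 10). The local background rose with the summit, to between 564 and 1387 times the floor in the 6 libraries, against 30.3 to 64.4 in the 4 others with a peak. The authors' fold, which divides the summit by that background, was 2.76 to 4.91 in the former and 2.88 to 3.23 in the latter, so the fold did not separate the groups.

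At the intergenic site the tall domain was found with ecSE1 and with the combination. The site, chr8:133720000, lies in no gene; the nearest protein-coding gene, ST3GAL1, is 148 kb away, and the nearest annotated gene of any kind, the pseudogene MTND2P7, is 34739 bp away. It too had been chosen for its difference and is described without a test. The tallest peak within 10 kb reached 3945, 6337 and 4879 times the floor in the ecSE1 libraries, or 646, 1474 and 1063 fragments. In the combination libraries it reached 5224, 5341 and 4585 times the floor, or 1300, 1653 and 1305 fragments. By −log10 q, the best peak within 10 kb ranked 2 in the whole list in each of these 6 libraries. The summit of the tallest lay between 133727933 and 133727936 in all of them. In contrast to the TG site, all 10 other libraries had a peak here as well. Those ran from 248 to 435 times the floor with a median of 356, or 66 to 134 fragments, and the vector libraries, at 284 and 370, lay among them. The ecSE1 and combination libraries overlapped each other, and the median of the 6 was 14.2 times that of the other 10.

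The intergenic domain was longer than the one at TG. Tall peaks spanned 13.2 to 15.1 kb in ecSE1 libraries, with 8 to 10 tall peaks each, and 10.4 to 12.1 kb in combination libraries, with 6 to 9. All tall peaks lay on the distal side of the site, the first 2.21 to 2.34 kb from it. The last tall summit lay 16.7 kb away in ecSE1 replicate 1, 15.1 kb in the other ecSE1 libraries and 11.9 to 13.7 kb in the combination libraries. All 6 libraries had tall summits at 4.41, at 5.05 to 5.20, at 7.93 to 7.94 and at 11.8 to 11.9 kb. Beyond the domain the difference was smaller: 22 to 27 kb distal of the site, 5 of these 6 libraries had a peak at 225 to 370 times the floor, and 9 of the other 10 at 123 to 211. The local background at the tallest peak was 1153 to 1968 times the floor against 96.5 to 158, and the authors' fold 3.22 to 4.25 against 2.45 to 3.69. Covered length within 10 kb overlapped, at 3327 ± 500 bp (SD, n = 6) against 1807 ± 807 bp (SD, n = 10; 554 to 3427). Heights of the 2 sets of libraries did not overlap at this site, while covered lengths did. The tall peaks of the 6 libraries ended between 133732487 and 133736846. The window of 10 kb thus left out the distal part of the domain and took in DNA on its proximal side. Covered length over the whole domain was not compared.

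**Figure D3:**
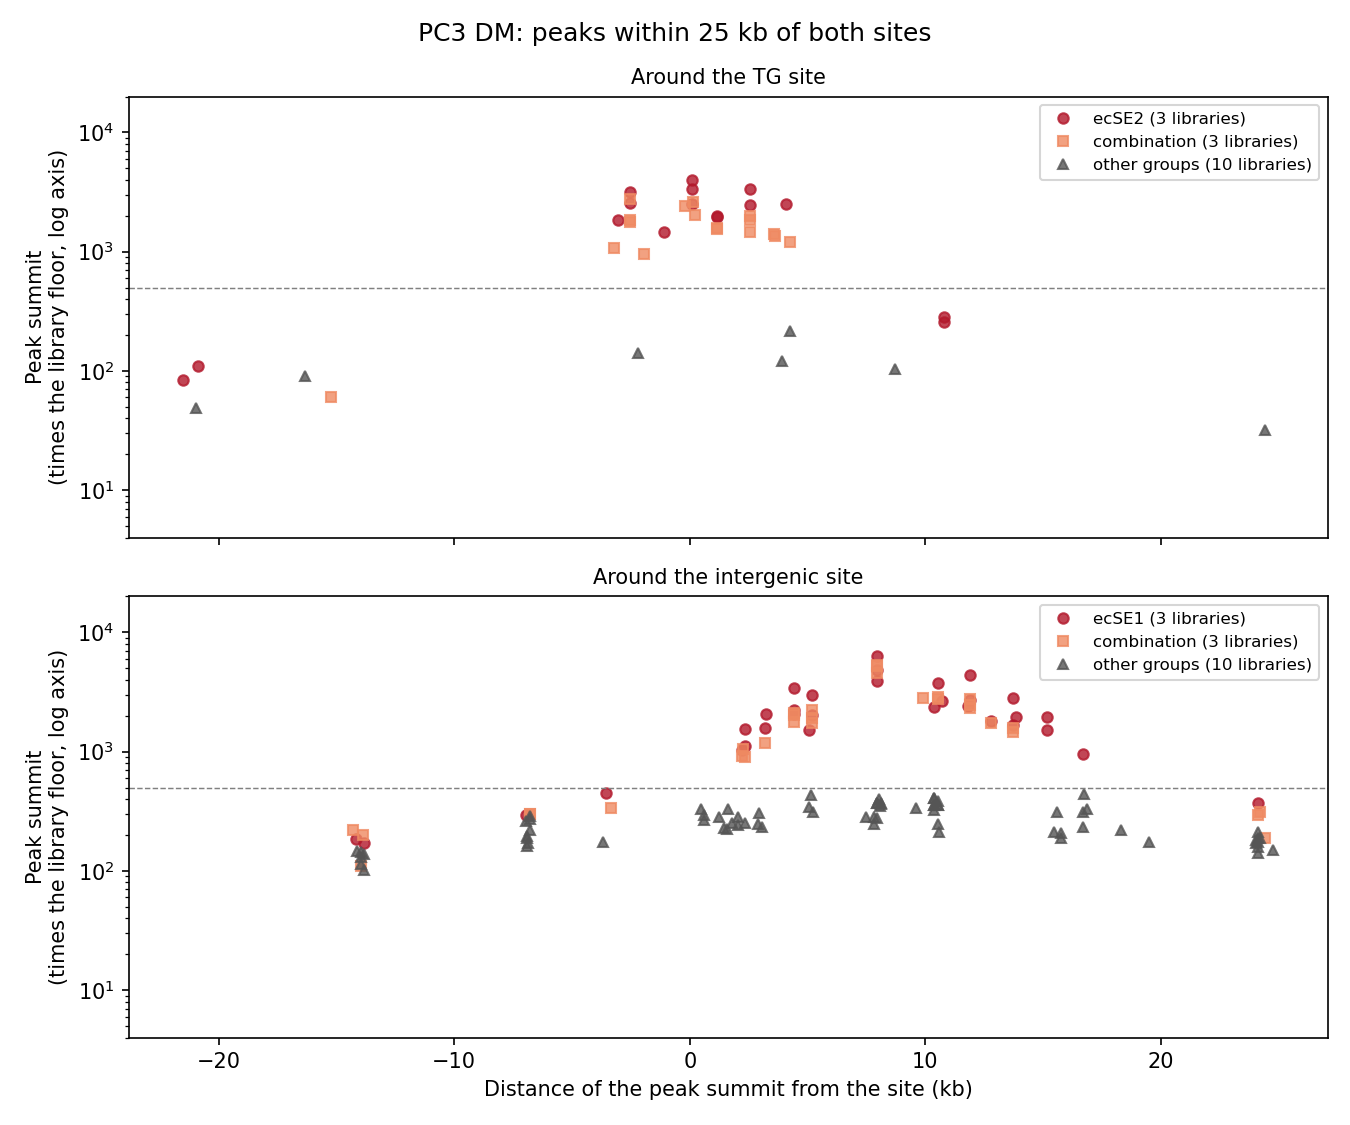
Height of each PC3 DM peak summit within 25 kb of the TG site (top) and of the intergenic site (bottom), as multiples of the library floor (log axis), against distance from the site (kb); the dashed line marks 500. Tall peaks with ecSE2 and the combination lie within 5 kb of the TG site, where the other 10 libraries have few peaks, while at the intergenic site the others have peaks throughout, the tallest within 10 kb at 248 to 435, below the tall peaks of ecSE1 and the combination.

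The 2 domains were separate by plasmid. The ecSE1 libraries had no tall peak at the TG site and the ecSE2 libraries none at the intergenic site, where they reached 346, 435 and 372 times the floor. The combination libraries had both. The ecSE6, ecSE7 and vector libraries had neither. All 158 tall peaks of the 16 libraries lay in the 3 blocks, which hold every raised peak. With a fold of 14.5 at most in PC3 DM, a tall peak has a raised background, so this follows by construction. As a measure that needs no floor, the summit was divided by that of the ADCY8 position in the same library. That position itself stood at 1637 and 1737 times the floor in vector libraries and at 849 to 1539 in perturbed ones. Dividing by it thus lowers the vector libraries against the others. The ratio at the TG site was 1.74 to 2.85 with ecSE2 and the combination and 0.0674 to 0.165 in the 4 other libraries with a peak. At the intergenic site it was 3.53 to 5.14 with ecSE1 and the combination and 0.162 to 0.367 in the other 10.

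**Figure D4:**
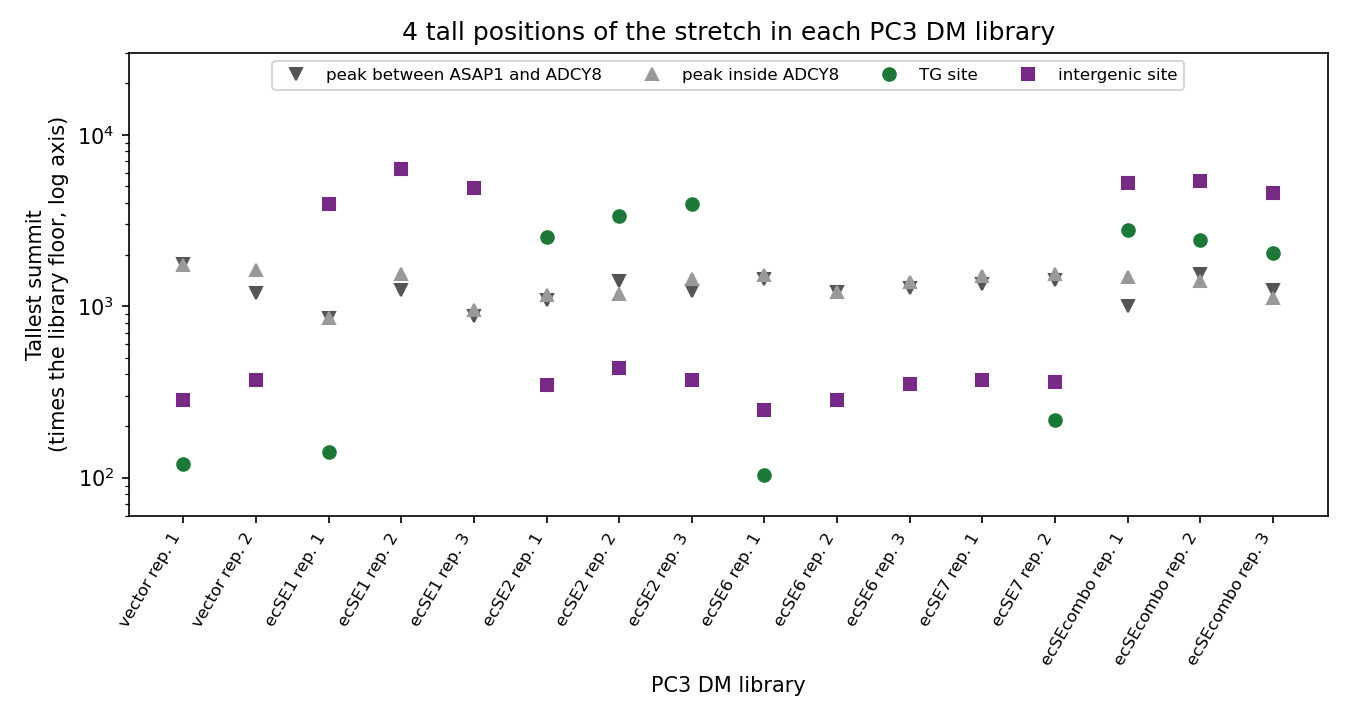
Tallest summit, as multiples of the library floor (log axis), at the positions between ASAP1 and ADCY8, inside ADCY8, at the TG site and at the intergenic site, in each PC3 DM library (x axis); a missing TG symbol means that no peak was listed. The first pair of positions stays between 849 and 1757 in all 16 libraries, while the TG site rises above it with ecSE2 and the combination and the intergenic site with ecSE1 and the combination.

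Presence of a peak was also compared across all 5 kb bins of the genome, which asks whether the stretch gained or lost peaks with these plasmids. Libraries of ecSE2 and the combination were set against the other 10 PC3 DM libraries, with Fisher's exact test, on bins where a peak was present in at least 3 libraries and absent from at least 3. No bin was called, of 116 tested in the stretch or of 62247 in the genome (0% called). With 6 libraries against 10, even complete separation gives a Fisher's exact p of 0.000125. After adjustment over 62247 bins, a bin could pass only if many others separated as fully. The lack of calls in such comparisons thus shows nothing either way. Unadjusted p was under 0.05 in 8 of the 116 bins (6.90%) and in 2591 bins of the genome (4.16%). The 8 include the 2 bins of the TG domain, whose site had been chosen for this difference and which are given without a p. A peak fell in chr8:132875001-132880000 in 6 of 6 and 1 of 10 libraries, and chr8:132880001-132885000 in 6 of 6 and 2 of 10. The next, chr8:133745001-133750000, had one in 6 of 6 against 4 of 10. It lies in the intergenic block, which was likewise drawn after its values were seen, and is given without a p. For ecSE1 and the combination no bin of the stretch was called either (0% of 62247 called), and 4 of 116 had an unadjusted p under 0.05 (3.45%, against 5.13% of the genome's bins). The smallest p was that of chr8:130740001-130745000, between ASAP1 and ADCY8, with a peak in 4 of 6 libraries against 0 of 10. This bin lies in the first block, also drawn after its values were seen, and is given without a p. The intergenic domain could not enter this test in the bin of its highest peak, since all 16 libraries had a peak there. The tests assume that the combination includes ecSE1 and ecSE2, which the labels do not state.

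Neither domain was seen in COLO320 DM. Within 10 kb of the TG site 1 of 18 libraries had a peak, ecSE2 replicate 3, with 233 bp, 8 fragments and 11.5 times the floor. Within 10 kb of the intergenic site 2 of 18 did: ecSE2 replicate 3 with 246 bp and combination replicate 3 with 294 bp, each with 9 fragments and 12.9 times the floor. None of these was near the height of the PC3 DM domains, and no COLO320 DM peak of the stretch was tall. The highest of that line stood at 58.7 times the floor, in ecSE1 replicate 1, in the 200 kb window that holds ST3GAL1. Covered length at the TG site was 38.8 ± 95.1 bp with ecSE2 and the combination (SD, n = 6) and 0 bp in the other 12 libraries, with an exact permutation p of 0.333 (adjusted p 1 over 8 tests). At the intergenic site it was 49 ± 120 bp with ecSE1 and the combination (SD, n = 6) and 20.5 ± 71.0 bp in the others (SD, n = 12), with an exact permutation p of 0.765 (adjusted p 1). The smallest of the 8 adjusted p was 0.784. With a peak in 1 library at the TG site and 2 at the intergenic site, no grouping of 6 against 12 could give an exact permutation p below 0.333 and 0.0980, so these tests could not have passed and show nothing either way. Across 5 kb bins, none of 44 tested in the stretch was called for ecSE2 or for ecSE1 (0% of 37638 called, Fisher's exact test). Of the 44, 0 and 2 had an unadjusted p under 0.05 (0% and 4.55%, against 1.17% and 2.53% of the genome's bins). The bins of the 2 domains were not among the 44, since fewer than 3 libraries had a peak there. After adjustment over 37638 bins, a bin could pass only if many others separated as fully. The bin tests thus say nothing of the domains in this line. Read totals were not used here, so no lower limit of detection is given.

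**Figure D5:**
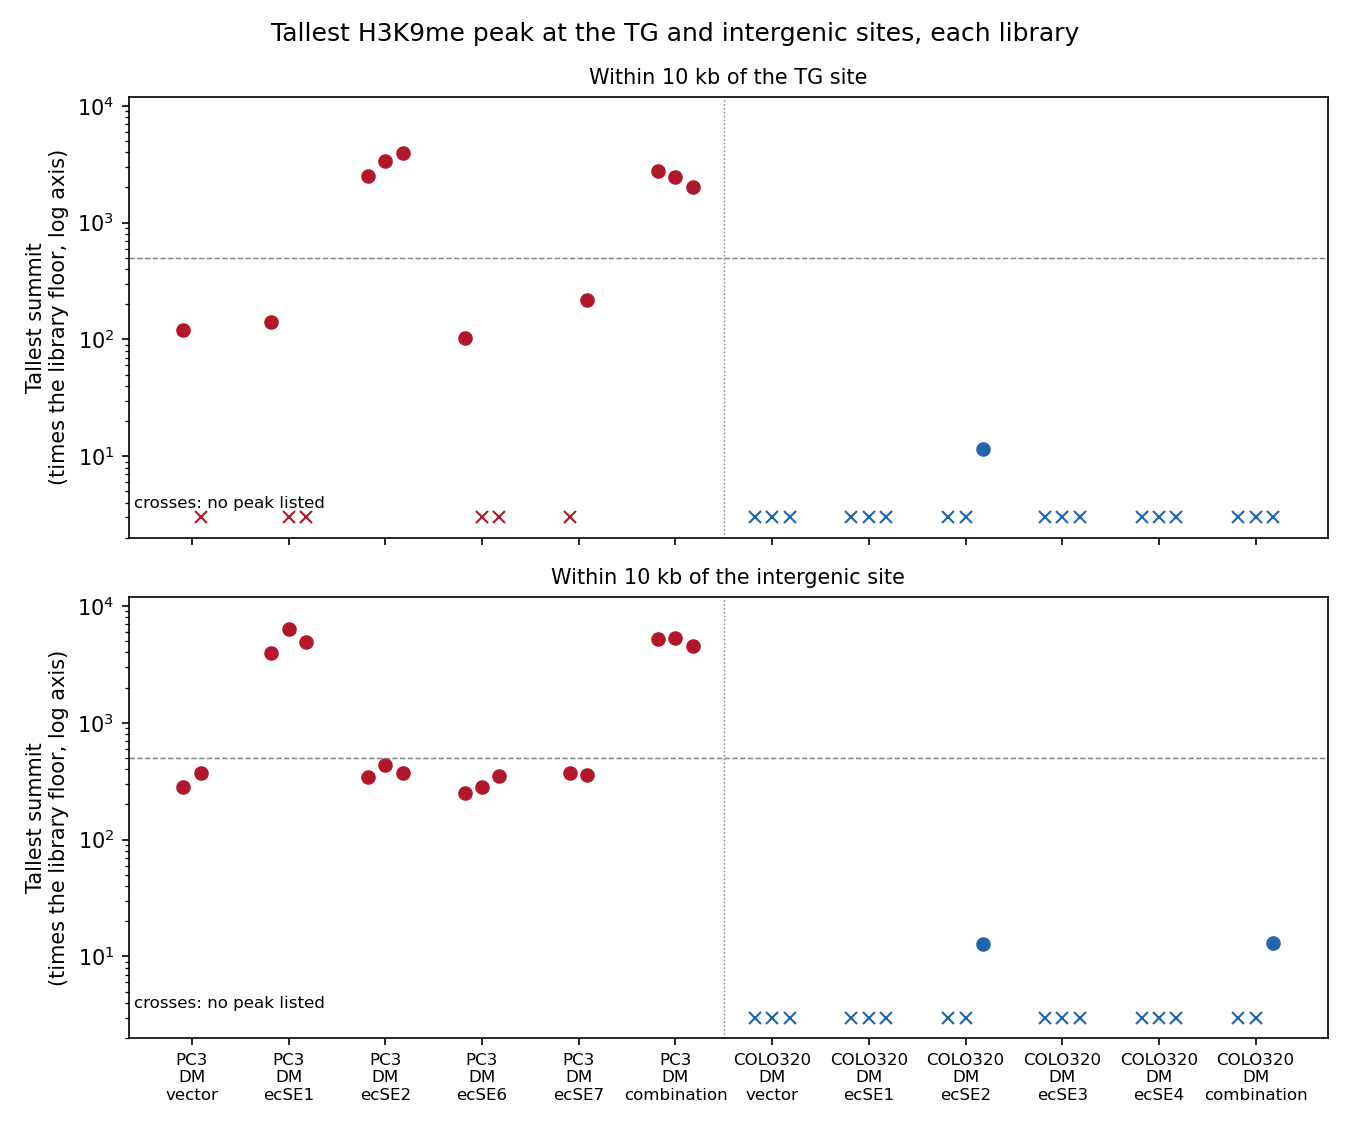
Tallest summit within 10 kb of the TG site (top) and the intergenic site (bottom), as multiples of the library floor (log axis), for each library by line and group; crosses are libraries with no peak listed and the dashed line marks 500. PC3 DM libraries of ecSE2 and the combination reach 2031 to 3967 at the TG site, those of ecSE1 and the combination 3945 to 6337 at the intergenic site, and the 3 COLO320 DM peaks lie at 11.5 to 12.9.

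Between the lines, 35 of 243 tested bins of the stretch were called (14.4%; Fisher's exact test, adjusted over 120164 bins), all with a peak in fewer COLO320 DM libraries. Genome-wide 3.47% of bins were called, 2.88% with more COLO320 DM libraries and 0.598% with fewer, so the direction in the stretch was the rarer of the 2. The called bins lay in the block from ASAP1 to ADCY8 (21 of 45 tested) and in the intergenic block (12 of 27), with 2 of 168 outside the blocks and 0 of 3 in the TG block. The blocks were drawn on raised PC3 DM peaks, so bins with more PC3 DM libraries are favoured there by construction. The split by block is thus a description with no test. In 4 bins every PC3 DM library and no COLO320 DM library had a peak. All 4 lie inside the blocks and are given without a p: chr8:130600001-130605000, chr8:130705001-130710000, chr8:133725001-133730000 and chr8:133780001-133785000. The third of these holds the highest peak of the ecSE1 domain, which stood in vector libraries as a lower peak.

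Of the 15 protein-coding genes that overlap the stretch, taken with 2 kb on each side, 14 could be tested and 2 were called, against 7% of 10064 genes genome-wide, 5.74% with fewer COLO320 DM libraries and 1.25% with more. PHF20L1, a tudor-domain protein that binds methylated lysine, had a peak in 10 of 16 PC3 DM and 0 of 18 COLO320 DM libraries (Fisher's exact test, adjusted p 0.00539). EFR3A, which anchors a phosphatidylinositol 4-kinase complex at the plasma membrane, had one in 10 of 16 and 2 of 18 (adjusted p 0.0478), a call that was lost in 26 of 34 cases when 1 library was left out. ASAP1 had a peak in 13 of 16 PC3 DM and 6 of 18 COLO320 DM libraries (adjusted p 0.0692), and TG in 15 of 16 and 9 of 18. Neither passed here, and each passed in 3 of 40 other settings. TG holds the site chosen in PC3 DM and overlaps the second block. More PC3 DM libraries with a peak in TG are thus favoured by construction, and its p is not given. ST3GAL1, named after its values were seen, went the other way with 5 of 16 and 15 of 18 libraries (adjusted p 0.0600). It passed in 13 of 40 other settings, more than EFR3A, which passed in 10 of 38. With lists of equal length neither PHF20L1 nor EFR3A was called, while ADCY8 was, with a peak in 16 of 16 PC3 DM and 5 of 18 COLO320 DM libraries. ADCY8 reaches into the first block, which was drawn on raised PC3 DM peaks. More PC3 DM libraries are thus favoured there by construction, and the p of that call is not given. KCNQ3, a potassium channel subunit of neurons, had a peak in 16 of 16 and 17 of 18 and could not be tested. ADCY8 had one in 16 of 16 and 15 of 18 (adjusted p 0.436).

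Most PC3 DM peaks of the stretch lay outside protein-coding genes. Protein-coding genes take up 49.6% of its length and held 28.5% of the PC3 DM peaks and 39.2% of the COLO320 DM peaks. Outside the blocks they held 47.4% and 44.0%. ADCY8 had 8.19 ± 3.87 peaks per PC3 DM library, or 3.14 per 100 kb, and KCNQ3 6.31 ± 3.48, or 1.75 per 100 kb (SD, n = 16). TG had 4.25 ± 3.91 peaks, or 1.59 per 100 kb, and ST3GAL1 0.5 ± 0.816, or 0.427 per 100 kb (SD, n = 16). In the intergenic block the lncRNA gene LINC03024 had peaks in 13 of 16 PC3 DM and 1 of 18 COLO320 DM libraries. The pseudogene MTCO1P49 there, a nuclear copy of a mitochondrial gene, had them in 16 of 16 and 0 of 18. Reads of such a copy can be shared with mitochondrial DNA or with other copies, so its count is uncertain. LINC03024 and MTCO1P49 lie in a block drawn on raised PC3 DM peaks, so more PC3 DM libraries are favoured there by construction.

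The next 4 Mb of the arm served as a neighbour of equal length. In PC3 DM that window held 0.315% ± 0.0418 of the peaks of a list (SD, n = 16), against 0.321% in the stretch, and 8 of 16 libraries were higher in the stretch (permutation p of 0.812 for the paired difference). With lists cut to equal length the stretch was higher by 0.125 points (permutation p 0.00067), and by covered length by 0.159 points (permutation p 0.00116). In COLO320 DM the stretch held more than its neighbour, 0.106% against 0.0858% ± 0.0268 (SD, n = 18), in 14 of 18 libraries (permutation p 0.00113). With lists of equal length that difference was −0.00237 points (permutation p 0.84).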

How the data were processed

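CUT&Tag for H3K9me was analysed from 34 deposited peak lists, each from a single library. The submitters' processing notes name hg38, MACS2 2.2.7.1, bedtools, SAMtools, Bowtie2 2.3.5 and Trim Galore 0.6.6. A control library and the treatment of duplicates are not given in the sources used here. Per the deposited lists, the fold is the authors' ratio of summit to local background, and −log10 p-values and −log10 q-values are the authors' Poisson values. The score is the authors' display value and was not used. Read totals were not used, so depth is unknown.

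The stretch, its sites and the genes named were chosen with earlier results of these data known. Groups came from sample titles. Summit fragments, taken as whole numbers, and the local background were solved from fold and −log10 p. The solution met the listed −log10 p within 0.001 for at least 99.85% of 2000 peaks sampled per library. It did so for 100% of the peaks of the stretch. The floor, the lowest local background of a list, was 0.164 to 0.405 fragments in PC3 DM and 0.501 to 0.872 in COLO320 DM, and recurred in 9% to 52.3% of the sampled peaks. How the floor moves with depth or DNA copies was not tested, so a multiple of it compares libraries only as far as their floors are alike. Blocks join raised peaks less than 100 kb apart and hold at least 5 libraries. Tests were exact permutation, permutation with 100000 resamples, paired sign-flip permutation and Fisher's exact test, two-sided, with Benjamini-Hochberg adjustment at 0.05. They used Python 3.11.15, numpy 2.4.6, pandas 2.3.3 and scipy 1.17.1, and were checked on simulated data. Comparisons within a line share libraries and are not independent.

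Genes came from RefSeq (GRCh38.p14) without strand or exons, so exonic, intronic and UTR positions are not given. Named genes were ASAP1, TG and every gene called. Bins were named from those of both sites and from the 5 of lowest p in a comparison. Not all of these are given, and none for the comparisons within COLO320 DM. No list shared more than 0.208% of its peaks exactly with another of its line. Alternatives were other overlaps, bins, windows, list lengths, a −log10 q of at least 5, the vector libraries alone, leaving out the combination or 1 library, and a replicate block. Peaks outside the blocks, and leaving out 2 lists of over 100000 peaks, were added after seeing the data.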

Additional observations from a re-analysis of the deposited data

How the results depend on the processing

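The higher share of PC3 DM kept its direction and its side of the threshold in 40 of 41 settings, of which 34 left out 1 library. Among the 40, the share outside the blocks is a description with no test, since the blocks were drawn on PC3 DM peaks. Without any 1 library the difference ran from −0.221 to −0.201 points. With vector libraries alone it was −0.198 points (exact permutation p 0.1). For perturbed against vector libraries the difference changed sign outside the blocks in PC3 DM (−0.00540 points), and without 1 library ran from −0.0540 to 0.0980 in PC3 DM and from −0.0157 to 0.0325 in COLO320 DM, never past the threshold. The sign changed without PC3 DM vector replicate 2, and without COLO320 DM vector replicate 1 or 2. Against the next 4 Mb, the PC3 DM difference was 0.125 points with lists of equal length, 0.159 by covered length and −0.181 outside the blocks, which were removed from the stretch alone and so lower it by construction, and −0.00601 to 0.0171 without 1 library, below 0 without ecSE1, ecSE6 or ecSE7 replicate 2 or combination replicate 3. In COLO320 DM it was −0.00237 with lists of equal length and 0.0179 to 0.0229 without 1 library. At the intergenic site in COLO320 DM the difference in covered length was −20.5 bp with −log10 q of at least 5 and without the combination, and −20.5 to 49 bp without 1 library, the lowest without combination replicate 3. With the 100 best peaks of each list, 2 bins at the TG site and 1 at the intergenic site were called in PC3 DM, with 6 of 6 libraries against 0 of 10; both sites had been chosen for that difference. The 35 bins that differed between lines became 23 with an overlap of 500 bp and 34 to 37 without 1 library. Of genes, 2 were called, and other genes were called in other settings: 1 with −log10 q of at least 5 (ST3GAL1), 4 with lists of equal length (ADCY8, KCNQ3, TG and ST3GAL1) and 4 with an overlap of 500 bp (ASAP1, ADCY8, KCNQ3 and ST3GAL1). ADCY8 and TG overlap blocks drawn on raised PC3 DM peaks, so their calls are favoured by construction. PHF20L1 and EFR3A were called with ASAP1 and ST3GAL1 without the 2 lists of over 100000 peaks (4 genes) and with HHLA1 without flanks (3 genes). Without 1 library, 1 gene was called in 19 cases and 7 without COLO320 DM ecSE1 replicate 2. PHF20L1 was called in 37 of 39 settings, most of them leaving out 1 library, ST3GAL1 in 13 of 40, EFR3A in 10 of 38, and ASAP1 and TG in 3 of 40 each. The cause of these changes was not tested.

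Replicate numbers did not pair the libraries: deviations of same-numbered libraries correlated over 0.1 in 5 of 36 pairs in PC3 DM (median −0.0204) and in 7 of 45 in COLO320 DM (median 0.0397). With the replicate number as a block, the share differences had p of 0.806 (PC3 DM, perturbed against vector), 0.838 (COLO320 DM) and 1e-05 (between lines), with values of 0.0220, 0.00389 and −0.214 points. The block gave 0 bins in each perturbation comparison, 34 bins and 1 gene (PHF20L1) between lines, and differences of 38.8 bp and 28.5 bp at the COLO320 DM sites. Heights rest on the floor of each list, and no interval for depth could be given without read totals.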
